A study of Caenorhabditis elegans with 12 samples.

Results

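The genes described here are the nuclear hormone receptor (NHR) genes of *C. elegans* whose WormBase name begins with nhr-, other than *nhr-62*, *nhr-8*, *nhr-49* and *nhr-80*. The gene table listed 45836 genes, and 265 of them carried such a name. Of these, 155 reached 1 CPM (a count scaled to library size by edgeR's cpm function, with TMM factors between libraries) in at least 3 libraries. They are called receptor genes below, and they make up 155 of the 13302 genes that passed this filter. Another 110 did not pass it, of which 10 had no count in any library. Just inside the filter stood *nhr-163*, *nhr-108* and *nhr-54*, with means of 0.904, 0.857 and 0.803 CPM, and just outside it stood 7 genes with means between 0.557 (*nhr-178*) and 0.761 CPM (*nhr-277*). Among the 155, 134 were at 1 CPM or more in all 12 libraries and 21 in 3 to 11 of them. Of the 155, 1 (*nhr-54*) passed only through the *eat-2* libraries, and *nhr-108*, *nhr-208* and *nhr-213* passed only through libraries of *eat-2* and the double mutant. *nhr-129*, *nhr-206* and *nhr-273* reached 1 CPM in no N2 library and in at most 2 *nhr-62* libraries.

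RNA of pools of whole animals was sequenced from 4 genotypes with 3 libraries each, described by the authors as biological replicates. These were the double mutant *eat-2;nhr-62*, *eat-2(ad465)*, *nhr-62(tm1818)* and wild-type (N2). The animals had been grown on *E. coli* OP50 and picked by hand as young adults that did not yet hold embryos. *eat-2(ad465)* worms feed slowly because a nicotinic receptor of their pharyngeal muscle is defective, and serve as a genetic stand-in for dietary restriction (DR) that is present from hatching and not imposed on adults. *tm1818* deletes sequence coding for the DNA-binding domain of NHR-62, and a product holding only the ligand-binding domain could still be made. The study asked which transcripts change under DR and which of those changes need *nhr-62*.

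Nuclear hormone receptors are transcription factors that bind DNA through a pair of zinc fingers and that, in many cases, respond to small lipophilic ligands such as steroids or fatty acids held by a separate domain. Nematodes carry far more of them than insects or vertebrates. Most of the extra ones descend from an HNF4-like ancestor, a large share of their genes lies on chromosome V, and for most no ligand or target is known. Those with known roles act in moulting, fat and propionate metabolism, detoxification and the response to pathogens. No receptor sequences are shown.

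The total count per library lay between 18260311 and 44753083. The receptor genes together took 0.156 to 0.167% of the counts in *eat-2;nhr-62*, 0.171 to 0.184% in *eat-2*, 0.139 to 0.142% in *nhr-62* and 0.133 to 0.145% in N2, so that the *eat-2* libraries stood above all others and the double mutant lay between *eat-2* and both non-restricted genotypes. In whole animals, more cells of a type and more RNA per cell cannot be told apart. *nhr-62* itself was read at 3.16, 3.19 and 4.31 CPM in *eat-2;nhr-62* libraries, 4.84, 5.86 and 4.59 CPM in *eat-2*, 4.63, 4.99 and 4.53 CPM in *nhr-62* and 6.57, 5.27 and 4.29 CPM in N2. These counts cover the whole gene, and *tm1818* removes only a part of it, so they do not check the genotype. The gene *eat-2*, in which *ad465* lies, was read with 3, 0 and 5 counts in *eat-2;nhr-62*, 6, 1 and 3 counts in *eat-2*, 12, 17 and 11 counts in *nhr-62* and 14, 20 and 7 counts in N2. Transcripts that mark several other tissues moved with *eat-2*. The summed level of 14 neuronal markers was 676 to 691 CPM in *eat-2;nhr-62*, 701 to 800 CPM in *eat-2*, 536 to 558 CPM in *nhr-62* and 530 to 571 CPM in N2, and the fold-change between *eat-2* and N2 was above 0 for 13 of them. Of 46 sperm markers tested, 44 were above 0 in *eat-2* against N2, and the summed level of the 54 listed sperm markers was 514 to 630 CPM in *eat-2;nhr-62*, 723 to 849 CPM in *eat-2*, 450 to 489 CPM in *nhr-62* and 376 to 695 CPM in N2. All 21 oocyte and eggshell markers were below 0 in that comparison, with sums of 16912 to 17392 CPM in *eat-2;nhr-62*, 11979 to 13485 CPM in *eat-2*, 17878 to 19499 CPM in *nhr-62* and 16350 to 18275 CPM in N2. *eat-2* replicate 1 stood apart in 11 moulting cycle genes, which summed to 238 CPM there and to 118 to 160 CPM in the other 11 libraries. Vitellogenins summed to 38910 to 50412 CPM in *eat-2;nhr-62*, 23250 to 27768 CPM in *eat-2*, 62623 to 73511 CPM in *nhr-62* and 65630 to 70346 CPM in N2, and hypodermal and cuticle genes to 3523 to 4492 CPM in *eat-2;nhr-62*, 3313 to 3500 CPM in *eat-2*, 4321 to 5766 CPM in *nhr-62* and 4542 to 5519 CPM in N2. By gene, 6 of 9 hypodermal and cuticle genes tested were above 0 in *eat-2* against N2, 2 called higher and 2 lower. Of 11 intestinal markers, 6 were above 0 there, with 2 called higher and 2 lower. Of 8 body wall muscle markers, 6 were above 0 and 0 were called. The part of these transcripts in the receptor results was not tested. Fits were made with the sperm or the oocyte level. Both levels separate *eat-2* from the other genotypes without overlap, so these fits cannot part marker level from genotype. The number of receptor genes called in each comparison was also taken with those levels in the fit and without each library in turn, while counts by level, chromosome, neighbour and overlap come from the fit of all libraries. Embryonic markers summed to at most 3.12 CPM in any library.

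Most receptor genes were expressed at low levels. The median of their means over the 12 libraries was 4.58 CPM, the lower quartile 2.36 CPM, and 113 of 155 lay under 10 CPM. Chromosome V held 98 of the 155 and 167 of the 265 named nhr- genes. Per kilobase of exon, the receptor genes spanned 0.517 to 84.1 CPM per kb with a median of 3.11, and the 10 highest took 39.7% of their summed CPM.

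The highest per kilobase was *nhr-114*, a receptor of gut and germline that lets animals cope with diets poor in vitamin B12. It averaged 84.1 CPM per kb over all libraries. *nhr-114* had 97.7, 134 and 130 CPM in *eat-2;nhr-62*, 63.2, 102 and 96.4 CPM in *eat-2*, 222, 126 and 112 CPM in *nhr-62* and 185, 117 and 150 CPM in N2. The 3 *eat-2* libraries lay below all 3 N2 libraries, and the first library of *nhr-62* was the highest of the 12. The log2 fold-change in *eat-2* against N2 was -0.79 ± 0.27 (standard error, here and below), with an adjusted p of 0.0251 in edgeR's quasi-likelihood test. This call did not hold when *eat-2* replicate 1, N2 replicate 1 or N2 replicate 3 was left out (log2 fold-changes of -0.60, -0.61 and -0.79, adjusted p of 0.0831, 0.0895 and 0.0569).

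Next came *nhr-68*, which turns on the propionate breakdown shunt when vitamin B12 is scarce, at 39.6 CPM per kb. It had 49.2, 56.4 and 66 CPM in *eat-2;nhr-62*, 61.1, 69.3 and 62.4 CPM in *eat-2*, 40.3, 47.4 and 48.0 CPM in *nhr-62* and 48.8, 40.7 and 44.1 CPM in N2. All *eat-2* values were above all N2 values, with a log2 fold-change of 0.53 ± 0.11 (adjusted p = 0.0026) that missed the 1.5-fold limit but passed it without N2 replicate 1 (0.60), with replicates 2 and 3 alone (0.64) and with scaling by total counts (0.75). *nhr-86*, a gut receptor that senses a bacterial metabolite and induces defence genes, stood at 34.7, 33.5 and 32.7 CPM in *eat-2;nhr-62*, 32.2, 32.5 and 31.4 CPM in *eat-2*, 33.0, 32.3 and 30.9 CPM in *nhr-62* and 32.9, 30.1 and 31.1 CPM in N2. The genotypes overlapped, apart from *eat-2;nhr-62* and *eat-2*, and its log2 fold-change in *eat-2* against N2 was 0.03 ± 0.06 (adjusted p = 0.68). *nhr-23*, the ROR ortholog that drives moulting, had 53.7, 54.4 and 53.3 CPM in *eat-2;nhr-62*, 53.9, 47.3 and 55.5 CPM in *eat-2*, 58.4, 60.1 and 61.7 CPM in *nhr-62* and 62.2, 61.2 and 61.4 CPM in N2. Both genotypes with *eat-2* lay below both without it, but by little (log2 fold-change of -0.24 ± 0.06 in *eat-2* against N2, adjusted p = 0.00785).

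*nhr-66*, a partner of NHR-49 in lipid metabolism, was read at 98.7, 102 and 105 CPM in *eat-2;nhr-62*, 84.9, 79.95 and 86.2 CPM in *eat-2*, 115, 116 and 108 CPM in *nhr-62* and 96.3, 108 and 104 CPM in N2. The *eat-2* libraries were the lowest 3 of the 12, with a log2 fold-change of -0.30 ± 0.06 against N2 (adjusted p = 0.00223), under the 1.5-fold limit. *nhr-97* had 93.2, 87.6 and 89.2 CPM in *eat-2;nhr-62*, 92.3, 88.1 and 95.5 CPM in *eat-2*, 83.6, 83.2 and 83.0 CPM in *nhr-62* and 84.7, 79.9 and 79.0 CPM in N2. Both genotypes with *eat-2* lay above both without it, with a log2 fold-change of 0.18 ± 0.05 in *eat-2* against N2 (adjusted p = 0.0138), also under the limit. *nhr-71* had 39.1, 38.4 and 39.2 CPM in *eat-2;nhr-62*, 29.7, 33.8 and 31.3 CPM in *eat-2*, 35.4, 34.1 and 33.8 CPM in *nhr-62* and 29.9, 35.2 and 32.1 CPM in N2. The double mutant stood above all 9 other libraries (log2 fold-change of 0.30 ± 0.07 against *eat-2*, adjusted p = 0.0276, and 0.26 ± 0.07 against N2, adjusted p = 0.0386), again by less than 1.5-fold.

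The other 3 of the 10 did not separate *eat-2* from N2. *nhr-46* had 42.0, 47 and 45.5 CPM in *eat-2;nhr-62*, 37.8, 46.3 and 41.9 CPM in *eat-2*, 49.4, 49 and 47.9 CPM in *nhr-62* and 46.2, 47.8 and 46.4 CPM in N2. *nhr-31*, which acts in growth of the excretory cell, had 37.0, 59.7 and 45.5 CPM in *eat-2;nhr-62*, 31.0, 46.8 and 46.4 CPM in *eat-2*, 50.0, 43.7 and 46.1 CPM in *nhr-62* and 53.0, 36.0 and 41.7 CPM in N2. *nhr-274* had 33.3, 32.0 and 33.1 CPM in *eat-2;nhr-62*, 32.0, 28.6 and 30.8 CPM in *eat-2*, 30.6, 31.0 and 32.5 CPM in *nhr-62* and 30.3, 33.3 and 31.9 CPM in N2. Thus 1 of the 10 receptor genes with the highest level per kilobase changed by more than 1.5-fold in *eat-2* against N2. Among these 10, ranks that lie close, such as *nhr-46*, *nhr-97* and *nhr-31* (18.6, 18.5 and 18.4 CPM per kb), cannot be ordered given the spread between libraries.

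Under DR, receptor genes changed mostly upward. A gene was called changed where edgeR's Benjamini-Hochberg adjusted p was under 0.05, the fold-change over 1.5 and the mean normalized count over 10. In *eat-2* against N2, 67 of 155 receptor genes were called, 57 higher and 10 lower, while 28.1% of all genes tested were called, 24.3% higher and 3.80% lower. The receptor shares were 36.8% higher and 6.45% lower. Their median log2 fold-change was 0.43, against 0.00 over all genes tested, and 122 of 155 (78.7%) were above 0, against 49.9% of all genes. Scaling by total counts moved the median of all genes to 0.22 and that of the receptor genes to 0.65, and gave 85 higher and 4 lower. With libraries of *eat-2* and N2 compared directly, 101 of 155 receptor genes (65.2%) did not overlap, against 62.1% of all genes. The count was 56 without *eat-2* replicate 1, and lay between 54 and 70 over all left-out libraries. It was 39 with the sperm level in the fit, a level that was higher in every *eat-2* library than in any other library. It was 0 with the oocyte level in the fit, where no gene of the 13302 was called either (11 receptor genes at an unadjusted p under 0.05); that level separates *eat-2* from the other genotypes without overlap.

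**Figure D1:**
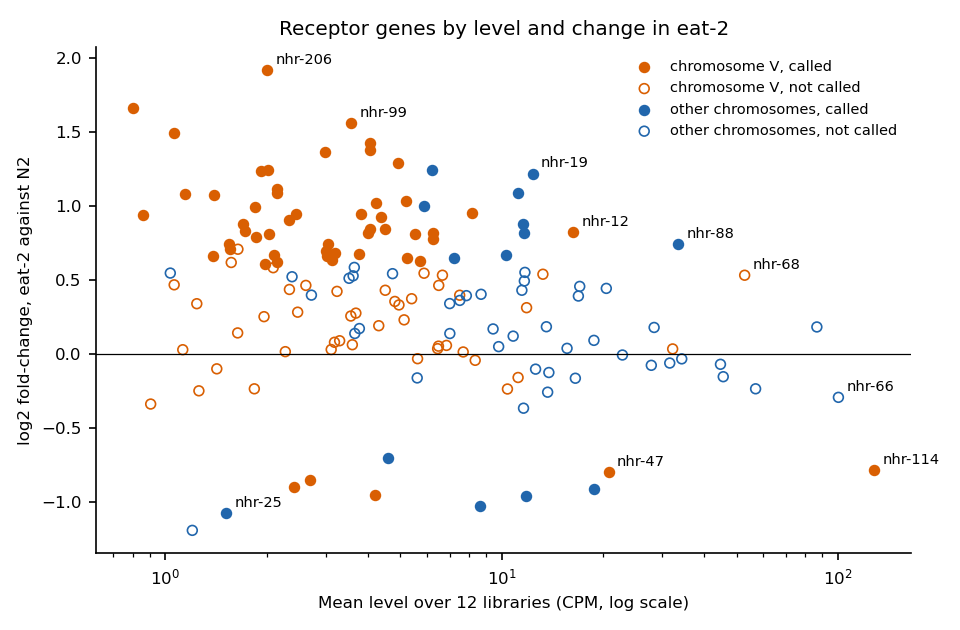
Each point is 1 of 155 receptor genes, placed by its mean level over 12 libraries (CPM, log axis) and its log2 fold-change in *eat-2* against N2, with chromosome V in orange, other chromosomes in blue, and called genes filled. The called increases gather at the left, among genes of low level, and 48 of the 57 lie on chromosome V.

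This share followed the level of the genes. Among receptor genes under 2 CPM, 14 of 28 (50.0%) were called higher in *eat-2* against N2, and 49.7% of all genes in that range were. The shares were 48.1% of 54 receptor genes and 47% of all genes between 2 and 5 CPM, 32.3% of 31 and 37.9% between 5 and 10 CPM, 23.1% of 26 and 23.3% between 10 and 20 CPM, and 6.25% of 16 and 5.79% over 20 CPM. At each level the receptor genes were thus called higher about as often as all genes of that level, and 113 of the 155 lay in the 3 lowest ranges. The median log2 fold-change under 2 CPM was 0.64 for the receptor genes and 0.72 for all genes.

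**Figure D2:**
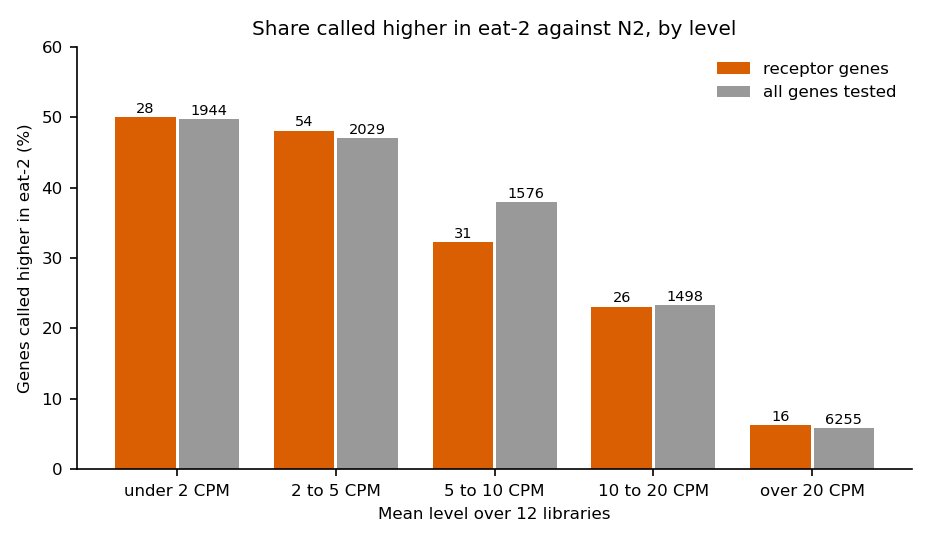
Bars give the percent of genes called higher in *eat-2* against N2 within 5 ranges of mean level, for receptor genes (orange) beside all genes tested (grey), with the number of genes above each bar. Both sets of bars fall together from about 50% under 2 CPM to about 6% over 20 CPM.

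A larger share of the receptor genes was called higher on chromosome V than elsewhere. On chromosome V 48 of 98 (49%) were called higher in *eat-2* against N2, beside 30.9% of all genes tested on that chromosome. On the other chromosomes 9 of 57 (15.8%) were, beside 22.8% of all genes. Split by level as well, the receptor genes of chromosome V were called higher in 14 of 25 cases under 2 CPM and 26 of 45 between 2 and 5 CPM (56.0% and 57.8%, beside 56.5% and 47.8% of all genes on that chromosome). Those elsewhere were called higher in 0 of 3 and 0 of 9 cases at these levels, beside 47.5% and 46.8% of all genes there. Between 5 and 10 CPM the shares were 36.8% of 19 on V and 25% of 12 elsewhere, beside 41.1% and 37.1% of all genes. Between 10 and 20 CPM they were 20% of 5 and 23.8% of 21, beside 25% and 22.9%. Over 20 CPM they were 0% of 4 and 8.33% of 12, beside 8.46% and 5.29%. On chromosome IV 1 of 22 was called higher, *nhr-7*, and 1 lower, *nhr-43*, beside 26.4% and 3.03% of all genes there. On X, 4 of 16 were called higher and 3 lower (*nhr-25*, *nhr-137* and *nhr-17*), beside 21.4% and 6.49% of all genes. No test was made of the difference between chromosomes.

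The genes of this family often lie side by side. Of the 155, 70 had another receptor gene as their direct neighbour among annotated protein-coding genes. In these 46 pairs both genes were called higher in 12, 1 gene in 14 and none in 20. By gene, 29 of the 70 with such a neighbour were called higher, and 28 of the 85 without. Of the pairs, 39 lay on chromosome V, where 48 of 98 receptor genes were called higher. A run of 7 on chromosome V, *nhr-56*, *nhr-128*, *nhr-103*, *nhr-18*, *nhr-126*, *nhr-134* and *nhr-96*, was called higher throughout in *eat-2* against N2, with log2 fold-changes from 0.67 (*nhr-103*) to 1.03 (*nhr-96*) and adjusted p from 0.00127 to 0.0121. In *eat-2;nhr-62* against N2, none of the 7 was called, and their log2 fold-changes lay between 0.24 and 0.64. Another 5 neighbours in a row on chromosome V were *nhr-161*, *nhr-163*, *nhr-139*, *nhr-140* and *nhr-162*. In *eat-2* against N2, 0 of them were called higher and 1 lower, with log2 fold-changes from -0.90 to 0.03. *nhr-107*, next to *nhr-162*, was called higher (0.62). Both runs were picked out after their values were seen. Reads of near-identical neighbours may have been split between them, since the authors kept 1 alignment per read. Exons of 46 of the 155 also overlapped those of another gene in the current annotation, and of these 14 were called higher and 3 lower, against 43 and 7 of the 109 without such an overlap. Among the genes described below, reads may be mixed in this way for, among others, *nhr-180* (*srh-266*), *nhr-193* (W08G11.5), *nhr-232* (*sri-18*), *nhr-17* (*nlp-76*), *nhr-57* (*lgc-1*), *nhr-125* (R02D1.2), *nhr-136* (*lhpp-1*), *nhr-6*, *nhr-47* (*hpo-15*) and *nhr-63*, and among those above for *nhr-66*, *nhr-86* (*comt-3*) and *nhr-97*.

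The largest increases in *eat-2* against N2 were all on chromosome V and at low levels, and no function is given for them here. *nhr-206* had 3.32, 2.71 and 2.37 CPM in *eat-2;nhr-62*, 3.87, 2.82 and 3.04 CPM in *eat-2*, 0.775, 1.41 and 1.19 CPM in *nhr-62* and 0.913, 0.861 and 0.790 CPM in N2. Both genotypes with *eat-2* stood above both without it, and the log2 fold-change in *eat-2* against N2 was 1.92 ± 0.25 (adjusted p = 0.00023), the largest of the 155. *nhr-99* behaved the same way, with 5.01, 8.0 and 6.58 CPM in *eat-2;nhr-62*, 4.42, 4.23 and 4.2 CPM in *eat-2*, 1.43, 2.34 and 2.29 CPM in *nhr-62* and 1.57, 1.69 and 1.09 CPM in N2. Here the double mutant was the highest, although its difference from *eat-2* was not called (0.62 ± 0.23, adjusted p = 0.0815), while *eat-2* was higher than N2 by 1.56 ± 0.25 (adjusted p = 0.000622). *nhr-208* had 1.36, 1.37 and 1.77 CPM in *eat-2;nhr-62*, 1.77, 1.38 and 1.63 CPM in *eat-2*, 0.575, 0.688 and 0.485 CPM in *nhr-62* and 0.548, 0.681 and 0.451 CPM in N2. Its levels in *eat-2;nhr-62* and *eat-2* overlapped and lay above both other genotypes (1.49 ± 0.24 in *eat-2* against N2, adjusted p = 0.000617). No *nhr-62* or N2 library of *nhr-208* reached 1 CPM, so it passed the filter through the genotypes with *eat-2* and had to differ.

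Further increases followed other patterns across the genotypes. *nhr-54* had 0.926, 0.606 and 0.668 CPM in *eat-2;nhr-62*, 1.64, 1.31 and 1.37 CPM in *eat-2*, 0.550, 0.585 and 0.620 CPM in *nhr-62* and 0.402, 0.430 and 0.526 CPM in N2. Only the *eat-2* libraries passed 1 CPM, with a log2 fold-change of 1.66 ± 0.23 against N2 (adjusted p = 0.000322). Since it entered the table through those libraries alone, it had to differ. *nhr-156* had 5.17, 3.86 and 4.07 CPM in *eat-2;nhr-62*, 5.38, 6.22 and 6.0 CPM in *eat-2*, 2.65, 4.2 and 4.72 CPM in *nhr-62* and 2.08, 2.30 and 2.18 CPM in N2. All 3 mutant genotypes lay above N2, and *eat-2* by 1.42 ± 0.21 (adjusted p = 0.000446). *nhr-180* had 5.88, 3.22 and 4.48 CPM in *eat-2;nhr-62*, 8.20, 6.49 and 6.0 CPM in *eat-2*, 1.65, 2.34 and 2.42 CPM in *nhr-62* and 2.78, 2.44 and 2.74 CPM in N2. It stepped up through N2, the double mutant and *eat-2* without overlap (1.38 ± 0.23 in *eat-2* against N2, adjusted p = 0.000837). After these came *nhr-193* (1.36 ± 0.33) and *nhr-232* (1.28 ± 0.22), and the other 49 called increases ran from 0.61 (*nhr-36*) to 1.24 (*nhr-195*). The highest in level among the 57 was *nhr-88* on chromosome II, at 53.1, 35.8 and 39.5 CPM in *eat-2* and 26.1, 26.5 and 24.1 CPM in N2 (0.74 ± 0.14, adjusted p = 0.00174).

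Receptor genes that fell in *eat-2* were fewer and of more varied level. *nhr-25*, the SF-1 ortholog that acts in epidermal development and moulting, had 0.980, 1.56 and 1.14 CPM in *eat-2;nhr-62*, 0.925, 1.18 and 0.429 CPM in *eat-2*, 2.13, 1.89 and 2.53 CPM in *nhr-62* and 1.53, 2.62 and 1.28 CPM in N2. The *eat-2* libraries lay below those of N2, with 1.18 CPM in the highest *eat-2* library and 1.28 CPM in the lowest N2 library, and the log2 fold-change was -1.08 ± 0.36 (adjusted p = 0.0241). This call was lost without *eat-2* replicate 3 (-0.77, adjusted p = 0.0773) or N2 replicate 2 (-0.71, adjusted p = 0.114). *nhr-137* had 5.72, 10.6 and 6.95 CPM in *eat-2;nhr-62*, 3.28, 6.09 and 6.26 CPM in *eat-2*, 12, 11 and 9.40 CPM in *nhr-62* and 10.3, 11.6 and 10.2 CPM in N2. The 3 *eat-2* libraries lay well under all 3 N2 libraries (-1.03 ± 0.25, adjusted p = 0.0055), and the double mutant spread between them. *nhr-17* had 9.86, 10.6 and 10.3 CPM in *eat-2;nhr-62*, 6.65, 10.2 and 9.01 CPM in *eat-2*, 13.5, 11.3 and 9.70 CPM in *nhr-62* and 26.4, 10.3 and 13.7 CPM in N2. N2 replicate 1 stood far above the rest and held much of this difference (-0.96 ± 0.29, adjusted p = 0.0149, but -0.47 and 0.0616 without that library, and -0.81 and 0.0501 without *eat-2* replicate 1).

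*nhr-57*, a gene induced by low oxygen through HIF-1, had 4.03, 3.47 and 3.94 CPM in *eat-2;nhr-62*, 3.95, 2.33 and 2.23 CPM in *eat-2*, 5.35, 4.09 and 4.58 CPM in *nhr-62* and 6.50, 5.06 and 4.93 CPM in N2. It was lower in every *eat-2* library than in any N2 library (-0.96 ± 0.22, adjusted p = 0.00421). *nhr-47* had 11.5, 14.2 and 13.3 CPM in *eat-2;nhr-62*, 11.9, 16.3 and 15.9 CPM in *eat-2*, 33.4, 30.0 and 26.4 CPM in *nhr-62* and 26.3, 26.3 and 24.3 CPM in N2. Both genotypes with *eat-2* stood far below both without it (-0.80 ± 0.13 in *eat-2* against N2, adjusted p = 0.000713), and the double mutant and *eat-2* overlapped. *nhr-53* fell by 0.86 ± 0.32 (adjusted p = 0.0368), but lost its call without *eat-2* replicate 1 or 3 or N2 replicate 1 or 3 (adjusted p of 0.113, 0.0633, 0.103 and 0.068). *nhr-2* and *nhr-161*, which also fell, are described with the double mutant. *nhr-74* had a larger difference than any of them (-1.19 ± 0.57), but its spread kept it from passing (adjusted p = 0.0926).

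**Figure D3:**
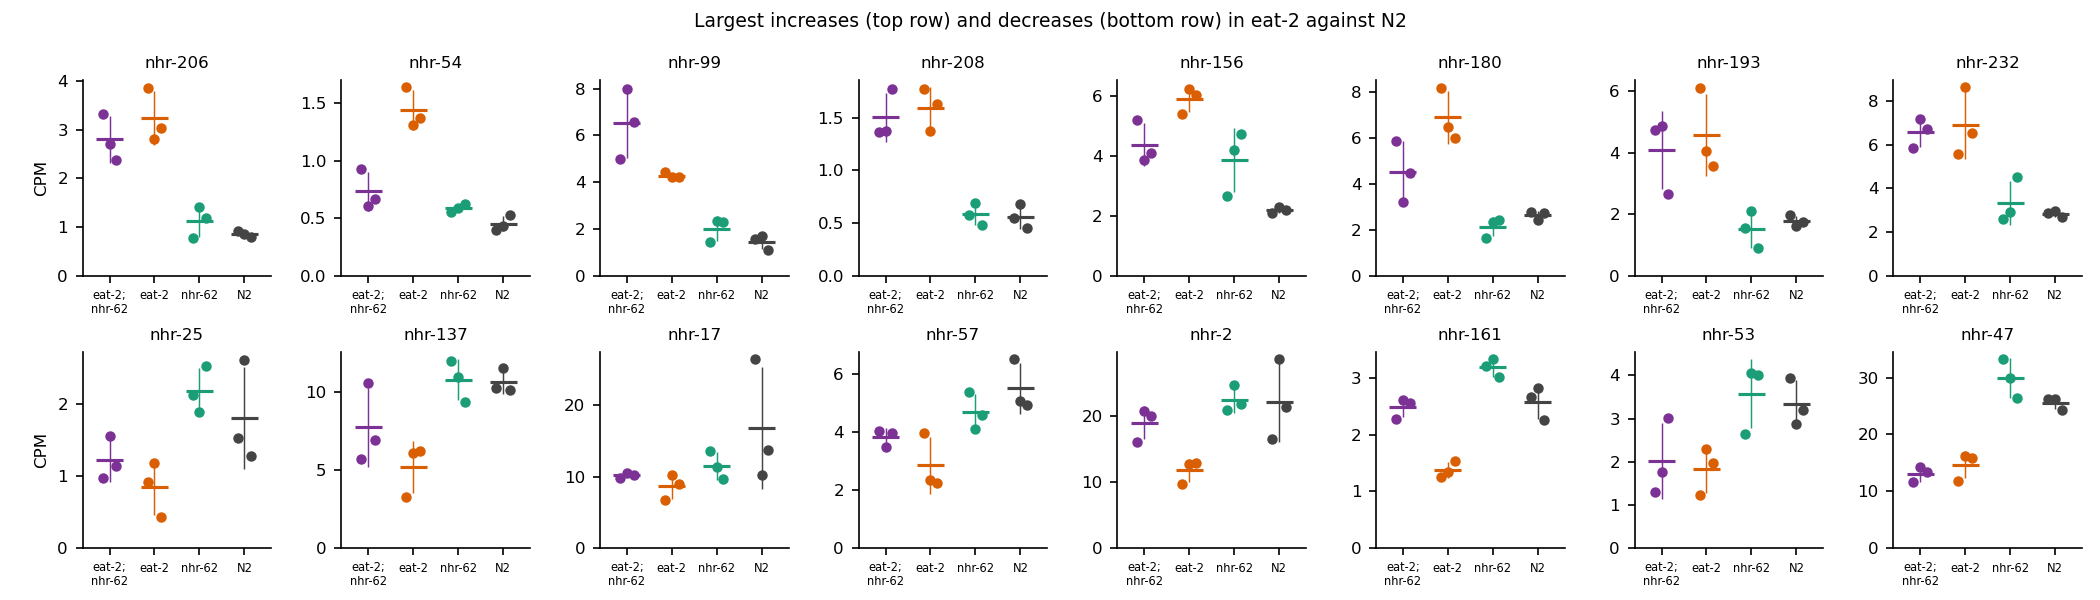
CPM in each library (points), with genotype means (horizontal bars) and SD (vertical lines, n = 3), for the 8 largest called increases (top row) and 8 largest called decreases (bottom row) in *eat-2* against N2. The double mutant overlaps with *eat-2* for *nhr-206*, *nhr-208* and *nhr-47*, and stands apart from it for *nhr-54* and *nhr-161*.

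Receptors with known roles did not move as a block. Of 7 tested receptors that have orthologs outside nematodes, 0 were called higher and 1 (*nhr-25*) lower in *eat-2* against N2. *nhr-6*, the NR4A ortholog needed for the spermatheca, had 5.61, 7.78 and 6.61 CPM in *eat-2;nhr-62*, 4.12, 5.47 and 6.18 CPM in *eat-2*, 3.65, 3.20 and 3.37 CPM in *nhr-62* and 3.32, 3.87 and 3.65 CPM in N2. It was higher in the double mutant than in N2 (0.89 ± 0.18, adjusted p = 0.00753) and than in *nhr-62* (0.97 ± 0.17, adjusted p = 0.00414), with no overlap in either comparison. Its value in *eat-2* against N2 was 0.54 ± 0.18 (adjusted p = 0.022), short of 1.5-fold, but past it without *eat-2* replicate 1 (0.69) or N2 replicate 2 (0.59). *nhr-41*, the ortholog of the testicular receptors TR2 and TR4, stood at 14.1, 13.7 and 14.8 CPM in *eat-2;nhr-62*, 15.2, 12.8 and 13.8 CPM in *eat-2*, 8.38, 9.39 and 9.97 CPM in *nhr-62* and 9.06, 9.94 and 9.59 CPM in N2. The genotypes with *eat-2* lay above those without it by similar amounts, 0.62 ± 0.10 in *eat-2;nhr-62* against *nhr-62*, which was called (adjusted p = 0.00266), and 0.55 ± 0.10 in *eat-2* against N2, which was not. *nhr-85*, the Rev-erb ortholog, *nhr-91*, the GCNF ortholog, and *nhr-48*, a relative of *daf-12*, had log2 fold-changes of 0.53, 0.51 and 0.18 in *eat-2* against N2 and were not called, and neither was *nhr-23*. *nhr-41* was called in that comparison without *eat-2* replicate 2 (0.61), with the sperm level in the fit (0.60) and with scaling by total counts (0.76). *nhr-85* was called without *eat-2* replicate 3 (0.59) and with total counts (0.74), and *nhr-91* without *eat-2* replicate 2 (0.63) and with total counts (0.72). *nhr-67* and *nhr-111* did not pass the filter.

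None of 4 close relatives of *nhr-62*, *nhr-4*, *nhr-21*, *nhr-34* and *nhr-100*, was called in any comparison, with log2 fold-changes from 0.09 (*nhr-34*) to 0.34 (*nhr-21*) in *eat-2* against N2. *nhr-35*, which the study used as a control for RNAi, had 12.3, 13.2 and 11.6 CPM in *eat-2;nhr-62*, 24.4, 12.4 and 13.1 CPM in *eat-2*, 8.75, 7.71 and 6.98 CPM in *nhr-62* and 9.42, 6.74 and 7.26 CPM in N2. All *eat-2* libraries exceeded all N2 libraries, with the first *eat-2* library far above the rest (1.09 ± 0.23, adjusted p = 0.00287). Among the 3 receptors of vitamin B12 and propionate metabolism, *nhr-114* was called lower in *eat-2* against N2. *nhr-68* was higher there but fell short of the fold limit. *nhr-10*, which acts with *nhr-68*, was at 23.3, 24.2 and 21.3 CPM in *eat-2;nhr-62*, 22.9, 23.4 and 21.0 CPM in *eat-2*, 23.6, 23.8 and 23.2 CPM in *nhr-62* and 21.1, 25.1 and 21.6 CPM in N2. The 4 genotypes overlapped for *nhr-10* (-0.01 ± 0.09 in *eat-2* against N2, adjusted p = 0.93).

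Of 6 receptors linked to lipids, 1 was called in *eat-2* against N2. This was *nhr-79*, at 8.22, 4.94 and 7.21 CPM in *eat-2;nhr-62*, 9.13, 7.76 and 8.02 CPM in *eat-2*, 5.08, 6.02 and 4.2 CPM in *nhr-62* and 4.45, 4.99 and 5.11 CPM in N2. All *eat-2* libraries were above all N2 libraries (0.77 ± 0.19, adjusted p = 0.00571), and the double mutant overlapped with both. *nhr-13* and *nhr-66*, partners of NHR-49, *nhr-64*, *nhr-69*, which acts in insulin signalling, and *nhr-76*, which acts in serotonin-driven fat loss, had log2 fold-changes between -0.37 (*nhr-76*) and 0.43 (*nhr-69*) and were not called. Of 5 receptors of defence, xenobiotic, hypoxia and iron responses, *nhr-176*, which acts in the response to the drug thiabendazole, was higher in *eat-2* against N2 (0.94 ± 0.22, adjusted p = 0.00399), *nhr-57* was lower, and *nhr-14* (0.39), *nhr-45* (0.44) and *nhr-86* (0.03) were not called. *nhr-176* was read at 4.36, 4.21 and 3.94 CPM in *eat-2;nhr-62*, 5.76, 5.47 and 4.50 CPM in *eat-2*, 3.68, 3.41 and 2.40 CPM in *nhr-62* and 2.37, 3.59 and 2.22 CPM in N2, so that *eat-2* lay above the double mutant and the double mutant above the others. The call of *nhr-57*, *nhr-79* and *nhr-176* held without each library in turn. *nhr-64*, *nhr-69*, *nhr-14* and *nhr-45* were higher in every *eat-2* library than in any N2 library. They missed only the fold limit (adjusted p = 0.0287, 0.019, 0.00712 and 0.00285) and passed it with total counts (0.62, 0.64, 0.61 and 0.66). With the sperm level in the fit *nhr-76* was called lower (-0.96, adjusted p = 0.0294), though that level separates *eat-2* from N2 without overlap. Of the tissue receptors, *nhr-40*, which acts in muscle, had 0.45 ± 0.12 and *nhr-31* -0.07 ± 0.19 in *eat-2* against N2, neither called. *nhr-40* too missed only the fold limit (adjusted p = 0.00794) and passed it with total counts (0.67).

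**Figure D4:**
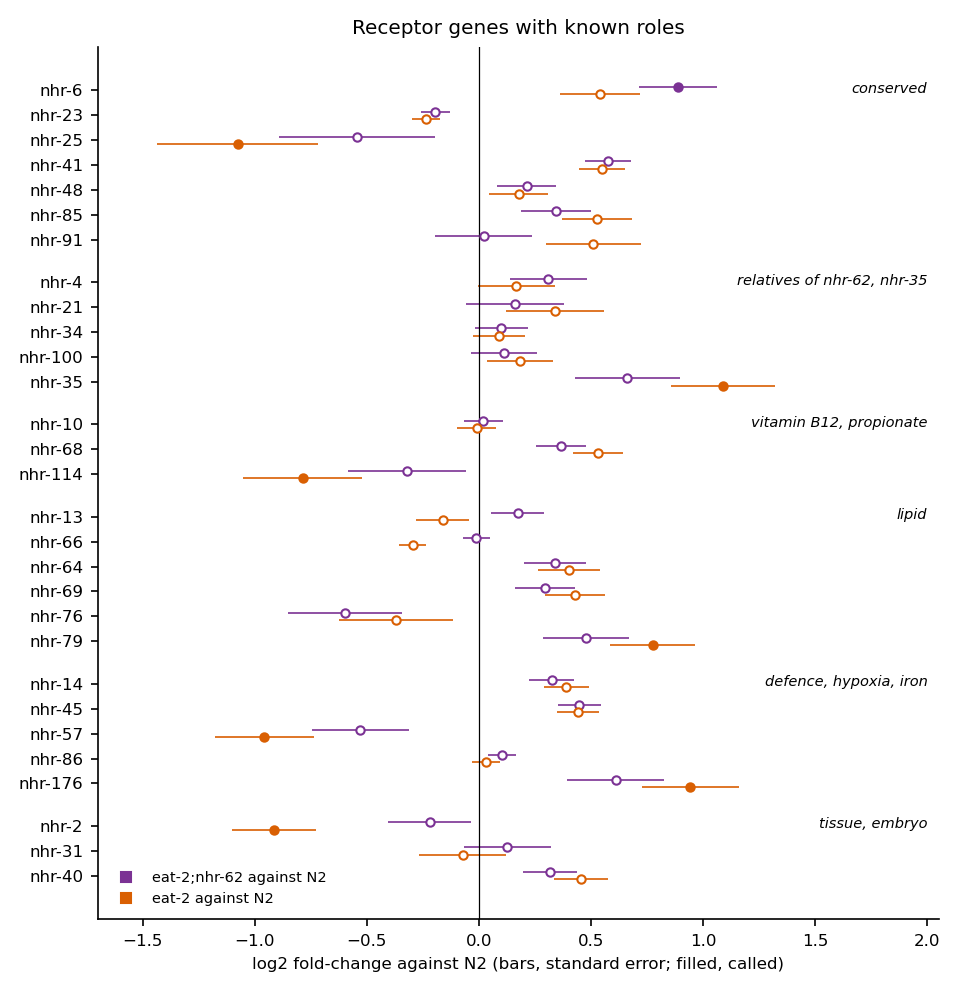
Log2 fold-changes (points) with standard errors (bars) in *eat-2;nhr-62* against N2 (purple) and in *eat-2* against N2 (orange), with called values filled. The 29 receptor genes are those with known roles, close relatives of *nhr-62* and the RNAi control *nhr-35*. Called points are few, and for *nhr-25*, *nhr-57*, *nhr-114* and *nhr-2* the purple point lies nearer to 0 than the orange one.

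Genes that work with such receptors were taken from a list of the same pathway. In *eat-2* against N2, 0 of 6 co-regulators were called (*mdt-15*, *gei-8*, *din-1*, *cbp-1*, *smo-1* and *ubc-9*, from -0.49 for *smo-1* to 0.28 for *mdt-15*). *smo-1*, which encodes SUMO, was called higher in the interaction of both mutations (0.59, adjusted p = 0.0204). Of receptors with another kind of name, *sex-1*, which counts X chromosomes, was lower (-0.60, adjusted p = 0.00758) and *daf-12*, the receptor for dafachronic acids, was at 0.16 and not called, while *unc-55*, *fax-1* and *odr-7* did not pass the filter. *strm-1*, whose enzyme lowers the supply of dafachronic acid precursors, was higher in *eat-2* against N2 (0.98, adjusted p = 0.00154). Of 4 listed genes of dafachronic acid synthesis it was the only one called there. *daf-9* and *daf-36* were not called, and *dhs-16* did not pass the filter.

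The *nhr-62* mutation on its own called 0 of 155 receptor genes against N2, and 0.113% of all genes tested. At an unadjusted p under 0.05, 7 receptor genes (4.52%) stood out in edgeR's test, beside 4.01% of all genes, and DESeq2's test also called 0. The smallest p belonged to *nhr-156*, whose levels are given above. The *nhr-62* libraries of this gene lay above those of N2 (0.81 ± 0.21, unadjusted p = 0.00233, adjusted p = 0.739). *nhr-112* had 1.91, 2.33 and 1.77 CPM in *eat-2;nhr-62*, 1.3, 1.34 and 1.97 CPM in *eat-2*, 1.35, 2.03 and 1.78 CPM in *nhr-62* and 0.840, 1.08 and 0.827 CPM in N2. Here all 9 mutant libraries stood above N2 (0.90 ± 0.24 in *nhr-62* against N2, adjusted p = 0.836). *nhr-209* had 1.91, 2.61 and 1.87 CPM in *eat-2;nhr-62*, 3.49, 3.05 and 2.27 CPM in *eat-2*, 3.55, 3.03 and 3.21 CPM in *nhr-62* and 2.04, 2.44 and 1.92 CPM in N2. Its *nhr-62* libraries lay above N2 (0.61 ± 0.20, adjusted p = 0.995). *nhr-115* had 3.54, 2.39 and 1.47 CPM in *eat-2;nhr-62*, 2.52, 2.52 and 1.89 CPM in *eat-2*, 1.08, 1.34 and 0.970 CPM in *nhr-62* and 1.35, 1.90 and 2.59 CPM in N2. It lay slightly under N2 in every *nhr-62* library (-0.79 ± 0.32, adjusted p = 0.995). The fifth, *nhr-125*, is given with the double mutant.

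The double mutant also differed from N2 in receptor genes. In *eat-2;nhr-62* against N2, 24 receptor genes were called, 21 higher (13.5%) and 3 lower (1.94%), while 7.47% of all genes were called, 5.98% higher and 1.48% lower. By level, the receptor genes were called higher in 7.14% of cases under 2 CPM, 22.2% between 2 and 5 CPM, 12.9% between 5 and 10 CPM, 7.69% between 10 and 20 CPM and 6.25% over 20 CPM, beside 9.72, 10.7, 8.82, 6.88 and 2.37% of all genes at these levels. Without *eat-2;nhr-62* replicate 1 or N2 replicate 3 the count was 15, and with scaling by total counts it was 39. The median log2 fold-change of the receptor genes was 0.28, against 0.02 over all genes. The largest increases were *nhr-99* (2.17 ± 0.25, adjusted p = 0.000342), *nhr-206* (1.70 ± 0.25, adjusted p = 0.00133), *nhr-208* (1.42 ± 0.24, adjusted p = 0.00284) and *nhr-63* (1.26 ± 0.23, adjusted p = 0.00501). The decreases were *nhr-43* (-1.18 ± 0.23, adjusted p = 0.00635), *nhr-11* (-1.03 ± 0.25, adjusted p = 0.0209) and *nhr-47* (-0.97 ± 0.13, adjusted p = 0.000871). Against *nhr-62*, the double mutant called 30 receptor genes, 26 higher (16.8%) and 4 lower (2.58%), while 11.9% of all genes were called, 10.1% higher and 1.78% lower. In the same 5 ranges of level, from lowest to highest, 10.7, 24.1, 12.9, 19.2 and 6.25% of the receptor genes were called higher. The shares of all genes in these ranges were 18.4, 19.8, 15.2, 9.95 and 3.1%. The largest differences were *nhr-99* (1.70), *nhr-193* (1.44), *nhr-208* (1.37) and *nhr-206* (1.32) upward, and *nhr-47* (-1.20), *nhr-43* (-1.03), *nhr-11* (-0.87) and *nhr-209* (-0.61) downward. The call of *nhr-11* against N2 was lost without any of the 3 *eat-2;nhr-62* libraries or N2 replicate 2 (adjusted p of 0.0583, 0.0518, 0.0669 and 0.0667), and against *nhr-62* without any library of either genotype (adjusted p from 0.0542 to 0.0827). The call of *nhr-209* was lost without any of 8 libraries, *eat-2;nhr-62* replicates 1 and 3, *eat-2* replicate 2, the 3 *nhr-62* replicates and N2 replicates 1 and 3 (adjusted p from 0.0523 to 0.146). Leaving out a library gave 20 to 33 calls in this comparison.

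The 57 receptor genes called higher in *eat-2* against N2 had a median log2 fold-change of 0.87 there, 0.59 in *eat-2;nhr-62* against N2, 0.55 in *eat-2;nhr-62* against *nhr-62* and 0.08 in *nhr-62* against N2. Of the 57, 18 were also called higher in *eat-2;nhr-62* against N2 and 21 in *eat-2;nhr-62* against *nhr-62*. The comparisons against N2 share the N2 libraries, and the 57 were chosen by the first, so their medians cannot be set against each other as a test. Of the 10 called lower, 2 (*nhr-43* and *nhr-47*) were also called lower in *eat-2;nhr-62* against N2.

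Set against *eat-2*, the double mutant differed by the call in 9 receptor genes, 2 higher and 7 lower, while 6.23% of all genes were called, 0.970% higher and 5.26% lower. The receptor shares were 1.29% higher and 4.52% lower. By level, 3 of 28 receptor genes under 2 CPM were called lower, beside 11.6% of all genes at that level, 2 of 54 between 2 and 5 CPM, beside 11%, and 1 of 31 between 5 and 10 CPM, beside 8.12%. Their median log2 fold-change was -0.12, against 0.00 over all genes. The count was 1 without *eat-2;nhr-62* replicate 2, where the count of all genes fell to 108 of 13229 tested, and it was 4 without *eat-2;nhr-62* replicate 3 and 5 without *eat-2* replicate 2. With the sperm level in the fit it was 1. With the oocyte level it was 0. Both levels separate *eat-2* from the double mutant without overlap, so these fits cannot part marker level from genotype. Scaling by total counts gave 1 higher and 9 lower. Of the 9, 7 were also called in *eat-2* against N2, each with the other sign. Both comparisons rest on the same *eat-2* libraries, and *nhr-54*, among the 7, passed the filter through those libraries alone.

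*nhr-12* was the steadiest of them. It had 11.7, 13.1 and 15.2 CPM in *eat-2;nhr-62*, 25.2, 22.2 and 24.3 CPM in *eat-2*, 13.0, 14.8 and 15.4 CPM in *nhr-62* and 11.8, 15.6 and 13.3 CPM in N2. The *eat-2* libraries stood alone, and the other 3 genotypes overlapped. The log2 fold-change was -0.84 ± 0.13 in the double mutant against *eat-2* (adjusted p = 0.00586) and 0.82 ± 0.13 in *eat-2* against N2 (adjusted p = 0.000533), and both calls held without each library in turn. In *eat-2;nhr-62* against N2 it was -0.02 ± 0.13. *nhr-12* had no exon overlap with another gene.

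*nhr-125* had 1.96, 1.69 and 1.80 CPM in *eat-2;nhr-62*, 2.86, 2.65 and 3.30 CPM in *eat-2*, 1.48, 1.79 and 1.81 CPM in *nhr-62* and 1.13, 1.40 and 1.20 CPM in N2. *eat-2* was highest and N2 lowest without overlap (-0.69 ± 0.17 in the double mutant against *eat-2*, adjusted p = 0.0278, and 1.23 ± 0.18 in *eat-2* against N2, adjusted p = 0.000371). *nhr-134* had 8.71, 6.98 and 7.75 CPM in *eat-2;nhr-62*, 15.7, 10.5 and 9.99 CPM in *eat-2*, 6.85, 6.71 and 5.77 CPM in *nhr-62* and 6.13, 6.71 and 5.83 CPM in N2. *eat-2* replicate 1 was the highest, and *eat-2* lay above the double mutant, which lay above the other genotypes (-0.63 ± 0.17, adjusted p = 0.0374, and 0.95 ± 0.17 in *eat-2* against N2, adjusted p = 0.00127). *nhr-136* had 2.72, 3.12 and 2.51 CPM in *eat-2;nhr-62*, 4.71, 4.39 and 3.47 CPM in *eat-2*, 2.50, 2.79 and 2.72 CPM in *nhr-62* and 2.88, 2.33 and 2.29 CPM in N2. It was higher in *eat-2* than in the other 9 libraries (-0.59 ± 0.17, adjusted p = 0.0435, and 0.74 ± 0.17 in *eat-2* against N2, adjusted p = 0.00411). *nhr-54*, whose levels are given above, was lower in the double mutant than in *eat-2* by 1.0 on the log2 scale, with a standard error of 0.22 (adjusted p = 0.0191). Since *nhr-54* passed the filter through the *eat-2* libraries alone, it had to differ here as well. Each of these 4 calls between the double mutant and *eat-2* depended on single libraries. That of *nhr-125* was lost without replicate 2 or 3 of either genotype (adjusted p up to 0.115). That of *nhr-134* was lost without *eat-2;nhr-62* replicate 2 or 3, *eat-2* replicate 1 or 2, *nhr-62* replicate 2 or N2 replicate 3 (up to 0.14). That of *nhr-136* was lost without any library but *eat-2* replicate 3 and N2 replicates 1 and 2 (up to 0.116), and that of *nhr-54* without *eat-2;nhr-62* replicate 2 or 3 (up to 0.0869). With the oocyte level in the fit, the value of *nhr-136* was 0.25 in the double mutant against *eat-2* and -0.13 in *eat-2* against N2. Neither was called (adjusted p = 0.9999 and 0.999), so these values give no direction.

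A pair of receptor genes went the other way. *nhr-2*, a regulator of early embryonic development, had 16.1, 20.8 and 20.0 CPM in *eat-2;nhr-62*, 9.68, 12.6 and 12.9 CPM in *eat-2*, 20.9, 24.7 and 21.8 CPM in *nhr-62* and 16.5, 28.7 and 21.3 CPM in N2. The *eat-2* libraries were the lowest 3 of the 12 (0.69 ± 0.19 in the double mutant against *eat-2*, adjusted p = 0.0364, and -0.91 ± 0.19 in *eat-2* against N2, adjusted p = 0.00226). The call in the double mutant against *eat-2* was lost without any of 8 libraries, *eat-2;nhr-62* replicates 2 and 3, all *eat-2* replicates, *nhr-62* replicates 2 and 3 and N2 replicate 3 (adjusted p from 0.0505 to 0.136). With the oocyte level in the fit, the value of *nhr-2* was -0.39 in the double mutant against *eat-2* and 0.25 in *eat-2* against N2. Neither was called (adjusted p = 0.9999 and 0.999), so these values give no direction. *nhr-161* had 2.29, 2.61 and 2.57 CPM in *eat-2;nhr-62*, 1.26, 1.34 and 1.54 CPM in *eat-2*, 3.23, 3.34 and 3.02 CPM in *nhr-62* and 2.67, 2.83 and 2.26 CPM in N2. The *eat-2* libraries were again the lowest, by a wide gap (0.85 ± 0.17, adjusted p = 0.0135, and -0.90 ± 0.16 in *eat-2* against N2, adjusted p = 0.00128), and the call between the double mutant and *eat-2* was lost without *eat-2;nhr-62* replicate 2 only (adjusted p = 0.0613).

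The other 2 of the 9 were lower in the double mutant without being called in *eat-2* against N2. *nhr-205* had 0.926, 0.892 and 0.868 CPM in *eat-2;nhr-62*, 2.57, 2.16 and 2.32 CPM in *eat-2*, 1.35, 2.13 and 1.02 CPM in *nhr-62* and 1.86, 1.15 and 1.58 CPM in N2. The double mutant lay under all 9 other libraries (-1.39 ± 0.28 against *eat-2*, adjusted p = 0.0147, and -0.77 ± 0.28 against N2, adjusted p = 0.0946). *nhr-11* had 2.18, 2.07 and 2.07 CPM in *eat-2;nhr-62*, 7.07, 4.0 and 3.47 CPM in *eat-2*, 3.80, 4.16 and 3.56 CPM in *nhr-62* and 4.09, 5.16 and 3.65 CPM in N2. Here too the double mutant stood alone below the others (-1.20 ± 0.25 against *eat-2*, adjusted p = 0.0159), while *eat-2* and N2 overlapped (0.17 ± 0.24, adjusted p = 0.557). Both calls against *eat-2* were lost without *eat-2;nhr-62* replicate 2 (adjusted p of 0.0648 for *nhr-205* and 0.0726 for *nhr-11*).

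**Figure D5:**
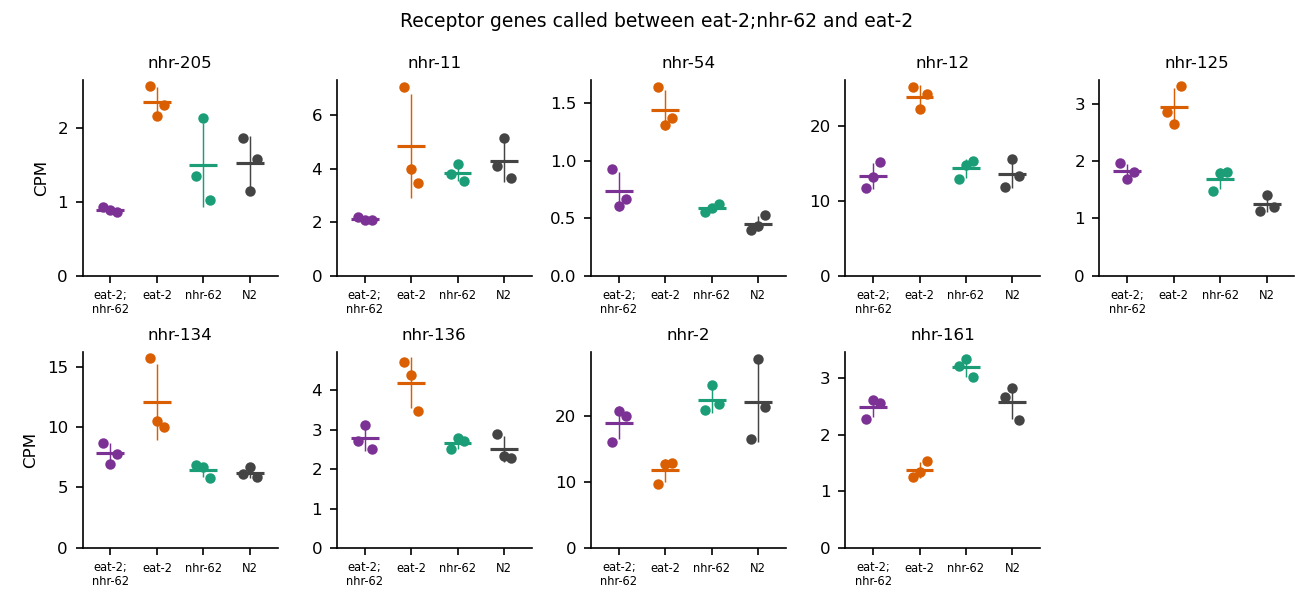
CPM in each library (points), with genotype means (horizontal bars) and SD (vertical lines, n = 3), for the 9 receptor genes called between the double mutant and *eat-2*. The *eat-2* libraries stand alone for *nhr-12*, *nhr-136* and *nhr-161*, whereas the double mutant stands alone, below the rest, for *nhr-205* and *nhr-11*.

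The interaction of both mutations asks whether *nhr-62* changed a gene by a different amount in *eat-2* than in otherwise wild-type animals. It called 0 of 155 receptor genes, and 0.308% of all genes tested. At an unadjusted p under 0.05, 19 receptor genes (12.3%) stood out in edgeR's test, beside 14.6% of all genes, and DESeq2's test called 2, *nhr-12* and *nhr-156*. The smallest p was that of *nhr-12* (-0.92 ± 0.18, adjusted p = 0.0595, and between 0.00113 and 1.0 under the other settings, passing in 6 of them, among them the fits without *eat-2;nhr-62* replicate 3 and without N2 replicate 2, at 0.0492 and 0.0474). It was followed by *nhr-125* (-1.13 ± 0.25, adjusted p = 0.0949), *nhr-156* (-1.25 ± 0.29, adjusted p = 0.12, or 0.0431 without *nhr-62* replicate 1), *nhr-54* (-1.36 ± 0.33, adjusted p = 0.128) and *nhr-209* (-1.07 ± 0.29, adjusted p = 0.166). In each of these 5 the interaction was below 0. For *nhr-54*, which passed the filter through the *eat-2* libraries alone, the filter itself favoured that sign. For *nhr-12* the levels show a difference between the double mutant and *eat-2* alone, while for the other 4, *nhr-125*, *nhr-156*, *nhr-54* and *nhr-209*, the *nhr-62* libraries were also above those of N2 (by 0.44, 0.81, 0.37 and 0.61).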

How the data were processed

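RNA of pooled whole young adults was made into TruSeq RNA libraries and sequenced, with 3 libraries from each of 4 genotypes. The authors clipped adapters, aligned the reads with TopHat 1.3 to the *C. elegans* genome with 1 alignment kept per read, and counted reads per gene with HTSeq, so the deposited values are whole-number counts per gene and library, not normalized. Strand use in counting and the versions of HTSeq and of DESeq, with which the authors made their own comparisons, are not given in the sources used here. The table holds 1 line without a gene, which was left out. A name was found for 98.5% of genes with any count. The table uses sequence names of an older build (WBcel215) than the gene table at hand (WBcel235). The latter served only for names, chromosomes, exon lengths, exon overlaps and neighbours, so no coordinates are given.

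Counts were scaled by TMM (a trimmed mean of ratios between libraries) and tested with edgeR 4.0.16 in R 4.3.3 (glmQLFit and glmQLFTest) over the 13302 genes with 1 CPM in 3 libraries, with all 12 libraries in 1 fit, genotype as the only factor and Benjamini-Hochberg adjustment over all genes. Thresholds followed the study: adjusted p under 0.05, fold over 1.5 and mean normalized count over 10. All adjusted p-values are from edgeR unless DESeq2 (1.42.0) is named. The fit was tested on simulated data first. Levels per kilobase divide CPM by exon length. p-values set the difference between genotypes against the spread between libraries of a genotype, each made from a pool of animals. In the 12 pairs of libraries of 1 genotype, counts differed by more than sampling noise (chi-square per degree of freedom 11.0 to 67.6), so none was a copy.

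Named are all genes of the role lists, the 8 largest called increases and decreases in *eat-2* against N2 and in the double mutant against *eat-2*, the 4 largest in the other comparisons of the double mutant, the 5 smallest p in *nhr-62* against N2 and in the interaction, the 10 highest per kilobase, and genes called in opposite directions. *nhr-88*, *nhr-74* and the runs of neighbours were added after their values were seen. The genes and lists were chosen with earlier results of these data known. Alternatives were other scalings, filters, tests and thresholds, a replicate block, the sperm level as covariate, fewer libraries, and, chosen after seeing the data, the oocyte level as covariate.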

Additional observations from a re-analysis of the deposited data

How the results depend on the processing

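Leaving out 1 library gave 54 to 70 called receptor genes in *eat-2* against N2, 0 in *nhr-62* against N2, 15 to 28 in *eat-2;nhr-62* against N2, 1 to 9 in the double mutant against *eat-2*, 20 to 33 in *eat-2;nhr-62* against *nhr-62* (20 without *eat-2;nhr-62* replicate 1 or *nhr-62* replicate 3) and 0 to 1 in the interaction (1 without *eat-2;nhr-62* replicate 3, *nhr-62* replicate 1 or N2 replicate 2). A test against a 1.5-fold change left 17, 3, 0 and 3 calls in *eat-2* against N2 and in the double mutant against N2, *eat-2* (6 at an unadjusted p under 0.05) and *nhr-62*. The sperm level as covariate left 39 in *eat-2* against N2 and 1 each in the double mutant against *eat-2* and the interaction. The oocyte level left 0 in *eat-2* against N2 (11 at an unadjusted p under 0.05), 0 in the double mutant against *eat-2* (2 at an unadjusted p under 0.05) and 6 in *eat-2;nhr-62* against *nhr-62*. With it, the values of *nhr-2* were 0.25 in *eat-2* against N2 and -0.39 in the double mutant against *eat-2*. Those of *nhr-136* were -0.13 and 0.25. None of these values was called, so they give no direction. Both marker levels separate *eat-2* from the other genotypes without overlap, so these fits cannot part marker level from genotype in comparisons with *eat-2*. Replicates 2 and 3 alone gave 18 calls in *eat-2;nhr-62* against *nhr-62* and 1 in the interaction, no filter on low counts gave 1 in the interaction, and DESeq2's test 2. Total counts gave 39 in *eat-2;nhr-62* against N2, and shifted the all-gene median (log2) to 0.22 in *eat-2* against N2, to 0.12, -0.12 and 0.10 in the double mutant against N2, *eat-2* and *nhr-62*, and to -0.14 in the interaction. The cause was not tested. Of 2095 values of the 84 named results under these settings, 1877 kept their side of the threshold. Direction was compared only where a value was called. By this rule 62 of the 84 results held without each library in turn. Uncalled values near 0 could change sign, such as that of *nhr-10* (-0.06 to 0.07 over the left-out libraries). The filter on members gave 134 receptor genes when 1 CPM was asked of all 12 libraries and 152 when it was asked of the mean.

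With the replicate number as a block, 69 receptor genes were called in *eat-2* against N2, 0 in *nhr-62* against N2, 27, 8 and 32 in the double mutant against N2, *eat-2* and *nhr-62*, and 1 in the interaction. This was *nhr-12* (adjusted p = 0.0415), and *nhr-136* fell short of 1.5-fold in the double mutant against *eat-2* (-0.58). The labels give the replicate numbers no shared origin. Deviations of same-numbered libraries correlated at -0.22 to 0.36 over 18 pairs (median 0.12), not above 0.1 in every pair, so the numbers were not taken to pair the libraries. Differently numbered libraries correlated at -0.42 to 0.35 over 36 pairs (median -0.04), lower at the median than same-numbered ones. As a hint from the data and not from the design, 21 of 36 matches of a library to another genotype were best with the same number. A shared origin of same-numbered libraries was not tested.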

Other observations

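Among the 110 nhr- genes left out by the filter, 93 had counts but stayed under 1 CPM in every library, 7 reached it in 1 or 2 libraries, and 69 lay on chromosome V. Of the 155 receptor genes, *nhr-168* had the largest positive difference between the double mutant and *eat-2* (1.22 ± 0.46, adjusted p = 0.084 in edgeR's test), which rested on 1 library. It had 1.47, 5.67 and 1.90 CPM in *eat-2;nhr-62* and 1.09, 1.54 and 1.29 CPM in *eat-2*. *nhr-130* was called higher in *eat-2;nhr-62* against N2 without being called in *eat-2* against N2, where it missed the 1.5-fold limit. It had 8.66, 9.18 and 8.82 CPM in *eat-2;nhr-62*, 6.52, 8.32 and 8.19 CPM in *eat-2*, 4.83, 4.71 and 4.80 CPM in *nhr-62* and 5.29, 5.70 and 4.96 CPM in N2. These genes were picked after their values were seen.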
